A study of Homo sapiens with 2 samples.

Results

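The genes described here are 35 genes of cholesterol and fatty acid synthesis, chosen by name from 19974 protein-coding genes in the RefSeq table for GRCh38. They comprise 5 regulators, 17 cholesterol steps and 13 fatty acid steps, and all 35 were found in the table. The cells were C4-2B, an established human prostate cancer line derived from LNCaP, grown in serum for at least 6 months with enzalutamide, a drug that blocks the androgen receptor, until resistant. CUT&Tag, in which an antibody brings a cutting and tagging transposase to a chromatin mark, was run on 100000 cells per library with 14 PCR cycles. There were 2 libraries, 1 for H3K27ac, a mark of active promoters and enhancers, and 1 for H3K4me1, a mark of enhancers and promoter borders. No untreated parental line, background library or replicate was among the samples, so no difference has a replicate check, no p-value is given, and every value describes this resistant line alone.

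Cells make cholesterol from acetyl-CoA through mevalonate, isoprenoid diphosphates and squalene, and make fatty acids from the same acetyl-CoA through malonyl-CoA and palmitate. The genes of both routes are classic targets of the SREBP transcription factors, which stay in the endoplasmic reticulum with SCAP and INSIG while sterols are plentiful and move to the nucleus after cleavage when sterols run low. In prostate tissue both routes are known to respond to androgen.

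The value used for each peak was its summit pileup, the number of overlapping fragments at the summit, recovered from the deposited fold and p of that peak. The peak lists do not say whether the piled-up units were reads or whole fragments, or how duplicates were handled. Intervals are exact Poisson 95% intervals and cover counting error only. The H3K27ac list held 64784 usable peaks with a median pileup of 13 (range 4 to 772), and the H3K4me1 list 139511 peaks with a median of 18 (4 to 480). Total depths are unknown, and a gene without a peak is one where no peak was called, since no called peak had a pileup under 4. Ends of all 7 prostate luminal markers examined carried both marks, among them KLK3, the gene of prostate-specific antigen, with 106 fragments of H3K27ac. The 4 basal and 3 stromal markers had no H3K27ac peak at their ends, and the blood marker CD3E had a shallow one of 14 fragments. H3K4me1 was less selective, with peaks at the ends of CD3E (59 fragments), TP63 (16), COL1A1 (14) and KRT5 (6), and the basal marker CAV1 had 15 of H3K27ac and 77 of H3K4me1 at its RefSeq start.

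Both marks were found at nearly all lipid synthesis genes. A H3K27ac peak lay within 1 kb of an end of 32 of the 35 genes, against 62.3% of all protein-coding genes. The same 32 genes had a H3K4me1 peak there, against 65.6%, and thus carried both marks, against 58.9%. FDFT1, HSD17B7 and ACACB had neither. The deepest H3K27ac peak at an end had a median pileup of 114 over the 35 genes and 26 over all genes (quartiles 0 to 85), with genes lacking a peak counted as 0. For H3K4me1 these medians were 53 and 20. Genes are not replicates of a condition, so these medians are descriptions.

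**Figure D1:**
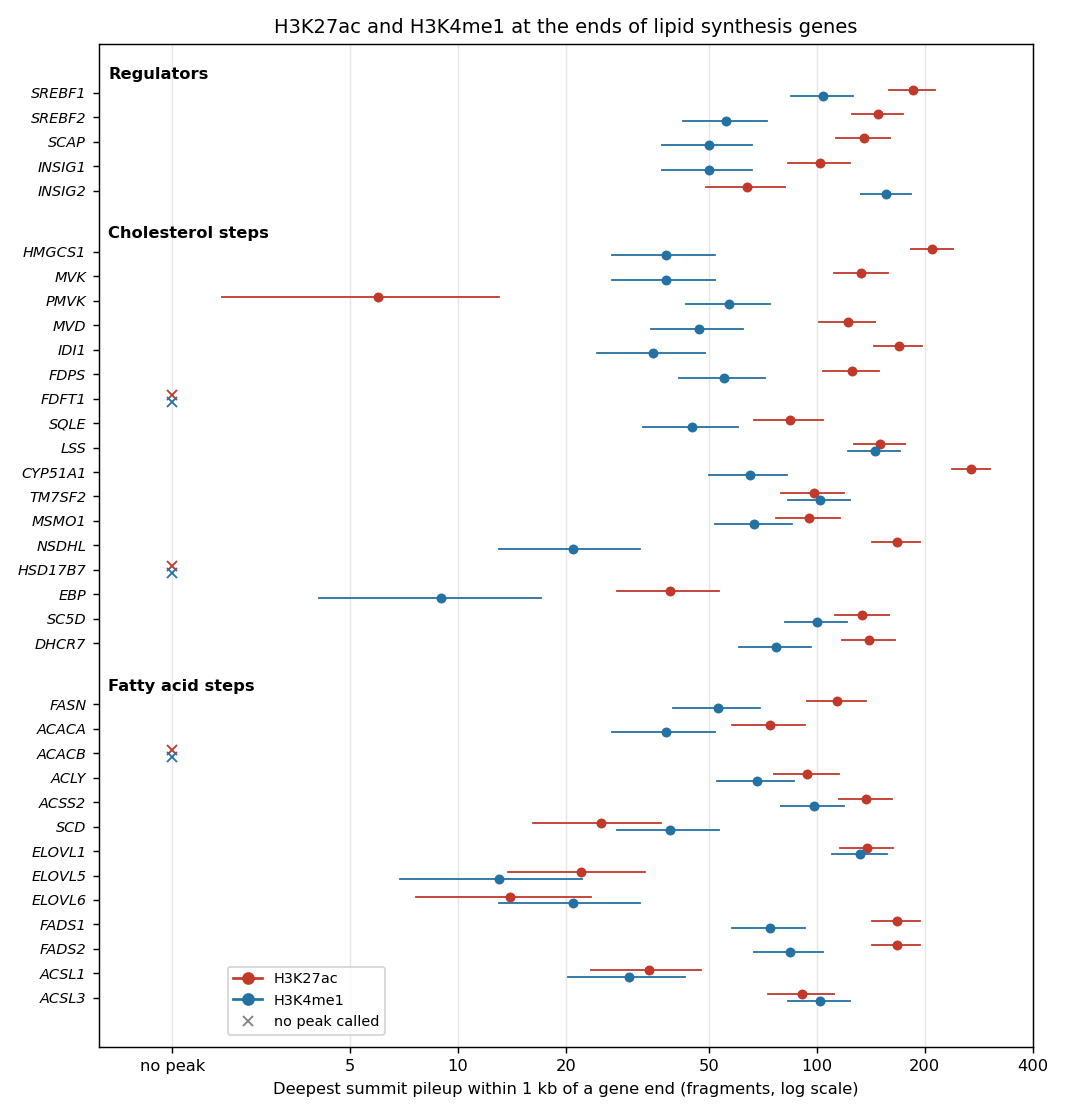
Deepest summit pileup of H3K27ac (red) and H3K4me1 (blue) within 1 kb of either end of each of the 35 genes, in fragments on a log axis, with exact Poisson 95% intervals as bars and crosses for genes with no called peak. Most red points lie between 84 and 210 fragments, INSIG2 has the deepest blue point, 156, and FDFT1, HSD17B7 and ACACB have crosses for both marks.

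All 5 regulators carried both marks. SREBF1 at chr17:17811334-17836986, which encodes the SREBP best known for driving fatty acid genes, had 185 fragments of H3K27ac (159 to 214) and 104 of H3K4me1 (84.98 to 126.01). Its H3K27ac peak lay at its RefSeq start, while its deepest H3K4me1 peak lay at the opposite end, the start itself having 88 fragments. SREBF2, which encodes the SREBP best known for driving cholesterol genes, had 148 fragments of H3K27ac (125 to 174) and 56 of H3K4me1 (42.3 to 72.7). These intervals of H3K27ac overlap between SREBF1 and SREBF2.

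SCAP, the escort that carries SREBPs to the Golgi, had 135 fragments of H3K27ac (113 to 159.8) and 50 of H3K4me1 (37.1 to 65.9). INSIG1, which holds SCAP back when sterols are plentiful, had 102 of H3K27ac (83.2 to 124) and 50 of H3K4me1 (37.1 to 65.9). INSIG2, its paralogue with the same role, had 64 of H3K27ac (49.3 to 81.7) and 156 of H3K4me1 (132 to 182). INSIG2 had the least H3K27ac of the 5 regulators, and its H3K4me1 was the deepest at an end of any of the 35 genes.

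The upstream 250 bases of SREBF2 and INSIG1 are shown, SREBF2 for its sterol element and INSIG1 for its E-box, both known sites of SREBPs. They are from RefSeq (GRCh38.p14), 5′ to 3′ on the strand of the gene, at chr22:41832855-41833104 (+ strand) and chr7:155297628-155297877 (+ strand). Capitals mark matches on either strand to the sterol element TCACNCCAC, the E-box CACGTG, the CCAAT box CCAAT (the known site of NF-Y) and the GC box GGGCGG (the known site of Sp1).
SREBF2: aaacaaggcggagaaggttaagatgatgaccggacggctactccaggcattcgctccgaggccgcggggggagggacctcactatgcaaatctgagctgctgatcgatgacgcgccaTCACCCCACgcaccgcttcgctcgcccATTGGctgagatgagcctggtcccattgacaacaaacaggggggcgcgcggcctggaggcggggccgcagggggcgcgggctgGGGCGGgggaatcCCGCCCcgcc
INSIG1: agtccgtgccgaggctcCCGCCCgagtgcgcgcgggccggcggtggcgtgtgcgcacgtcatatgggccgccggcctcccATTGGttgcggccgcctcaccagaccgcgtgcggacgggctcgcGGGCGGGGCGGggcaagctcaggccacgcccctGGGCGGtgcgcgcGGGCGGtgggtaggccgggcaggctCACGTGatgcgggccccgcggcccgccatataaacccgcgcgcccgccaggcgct
In SREBF2 the sterol element runs from -133 to -125 relative to the start, with a CCAAT box at -106 to -102. A peak of H3K27ac, chr22:41832458-41833975, covered all 250 bases, and H3K4me1 peaks covered 241. In INSIG1 the E-box lies at -55 to -50, beside 5 GC boxes, 2 of which overlap by a base. The window of INSIG1 has no match to the sterol element. H3K27ac covered its whole window too, and H3K4me1 204 bases of it. Both windows also lie within listed long noncoding genes, SREBF2-AS1 and INSIG1-DT.

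Of the 17 cholesterol steps 15 had both marks at an end, with a median of 125 fragments of H3K27ac (quartiles 84 to 150) and 47 of H3K4me1 (35 to 67). Among the 7 steps that lead to squalene, HMGCS1 had the deepest H3K27ac at a listed end, and FDFT1 had none there. HMGCS1, the synthase that makes HMG-CoA, had 210 fragments (183 to 240.4) of H3K27ac and 38 of H3K4me1 (26.9 to 52.2). IDI1, which isomerises isopentenyl diphosphate, had 169 (144 to 196) and 35 (24.4 to 48.7). MVK, mevalonate kinase, had 133 (111 to 158) and 38 (26.9 to 52.2). All 3 lay above the cholesterol median of H3K27ac and below that of H3K4me1.

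MVD, the decarboxylase that yields isopentenyl diphosphate, had 122 fragments of H3K27ac (101 to 146) and 47 of H3K4me1 (34.5 to 62.5). FDPS, which makes farnesyl diphosphate, had 125 (104 to 149) and 55 (41.4 to 71.6). PMVK, phosphomevalonate kinase, stood apart with 6 fragments of H3K27ac (2.20 to 13.1) and 57 of H3K4me1 (43.2 to 73.9) at its listed ends. The RefSeq start of PMVK lies 5.939 kb inside its listed span, and there H3K27ac reached 351 (315 to 389.7) in a peak of 1016 bp at chr1:154936421-154937436. That was more than at any end of the 35 genes, and H3K4me1 there was 51 (38.0 to 67.1). The start of PMVK was thus deeply marked, while its listed ends held little H3K27ac.

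FDFT1 at chr8:11795582-11839298, which makes squalene from farnesyl diphosphate, had no peak of either mark within 1 kb of an end. In its body it had 3 H3K27ac peaks, the deepest of 100 fragments (81.4 to 122) at chr8:11802142-11803361, and 8 of H3K4me1, the deepest of 158 (134 to 185) at chr8:11808224-11808552. These peaks begin more than 6 kb from the nearer listed end.

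The 10 steps from squalene onwards had a median of 116 fragments of H3K27ac, against 125 for the 7 steps before. Their H3K4me1 median was 66, against 38. CYP51A1, which removes a methyl group from lanosterol, had the deepest H3K27ac at an end of all 35 genes, 269 (238 to 303), with 65 of H3K4me1 (50.2 to 82.8). NSDHL, a dehydrogenase in the removal of methyl groups, had 167 (143 to 194) and 21 (13 to 32.1). LSS, which closes squalene epoxide into lanosterol, had 150 (127 to 176) and 145 (122 to 171). The H3K4me1 of LSS at that depth lay at the end away from its start, and at the start it was 65 (50.2 to 82.8).

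DHCR7, a reductase of the last step, had 140 fragments of H3K27ac (118 to 165) and 77 of H3K4me1 (60.8 to 96.2). SC5D, a sterol desaturase, had 134 (112 to 159) and 100 (81.4 to 122). TM7SF2, a sterol reductase, had 98 (79.6 to 119) and 102 (83.2 to 124). Of the late steps, LSS and these 3 had the most H3K4me1 at an end.

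MSMO1, the oxidase that acts with NSDHL on methyl groups, had 95 fragments of H3K27ac (76.9 to 116) and 67 of H3K4me1 (51.9 to 85.1). SQLE, squalene epoxidase, had 84 (67.0 to 104) and 45 (32.8 to 60.2), and no peak of either mark in its 50 kb flanks. EBP, a sterol isomerase, was the shallowest of the late steps with a called peak, at 39 (27.7 to 53.3) and 9 (4.12 to 17.1). HSD17B7, a ketosterol reductase, had no peak at its ends or flanks. In its body it had a H3K27ac peak of 7 fragments and H3K4me1 peaks of 25 and 8. HSD17B7 has 2 listed pseudogenes, and reads that fit more than one copy can be lost or misplaced. HSD17B7P2 had 2 H3K4me1 peaks of up to 14 fragments and no H3K27ac peak, and HSD17B7P1 had none of either. Its part in the missing peaks was not tested. The listed pseudogenes of FDPS (10), CYP51A1 (3), IDI1 (3), SCD (1) and ACSL3 (1) had no peak of either mark.

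Upstream 250 bases of HMGCS1, MVD and MSMO1 are shown because CCAAT boxes were most frequent at the cholesterol steps. They are from RefSeq (GRCh38.p14) at chr5:43313413-43313662 (- strand), chr16:88663092-88663341 (- strand) and chr4:165327419-165327668 (+ strand). Capitals mark CCAAT boxes (ATTGG on the other strand) and GC boxes (CCGCCC on the other strand).
HMGCS1: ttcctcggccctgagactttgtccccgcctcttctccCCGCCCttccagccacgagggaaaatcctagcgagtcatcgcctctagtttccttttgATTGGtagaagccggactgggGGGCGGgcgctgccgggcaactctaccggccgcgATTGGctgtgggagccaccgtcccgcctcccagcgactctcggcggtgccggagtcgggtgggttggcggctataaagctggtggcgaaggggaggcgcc
MVD: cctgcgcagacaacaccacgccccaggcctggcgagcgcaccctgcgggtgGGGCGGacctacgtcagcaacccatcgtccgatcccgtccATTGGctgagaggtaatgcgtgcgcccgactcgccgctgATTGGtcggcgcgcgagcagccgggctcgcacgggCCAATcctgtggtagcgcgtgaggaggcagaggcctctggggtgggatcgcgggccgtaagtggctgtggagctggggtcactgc
MSMO1: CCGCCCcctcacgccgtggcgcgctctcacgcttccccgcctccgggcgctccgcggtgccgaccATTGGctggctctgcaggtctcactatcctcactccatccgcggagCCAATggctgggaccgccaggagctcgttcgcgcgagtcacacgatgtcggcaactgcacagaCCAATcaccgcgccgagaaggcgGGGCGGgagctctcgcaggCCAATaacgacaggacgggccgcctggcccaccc
HMGCS1 holds 2 CCAAT boxes, MVD 3 and MSMO1 4. A H3K27ac peak covered all 250 bases of each, and H3K4me1 covered all of MVD and MSMO1 but 99 bases of HMGCS1. None of these windows holds the sterol element or the E-box.

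Of the 13 fatty acid steps 12 had both marks at an end, with a median of 91 fragments of H3K27ac (quartiles 25 to 137) and 53 of H3K4me1 (30 to 84). Among the genes that supply acetyl-CoA, ACSS2, which uses acetate, had 137 of H3K27ac (115 to 162) and 98 of H3K4me1 (79.6 to 119). ACLY, which splits citrate, had 94 (76.0 to 115) and 68 (52.8 to 86.2) at an end of its listed span. At the RefSeq starts of ACLY, more than 11 kb further in, the values were 78 (61.7 to 97.3) and 120 (99.5 to 143). Between these sites of ACLY the intervals of H3K27ac overlap and those of H3K4me1 do not.

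FASN at chr17:82078338-82098236, the synthase that makes palmitate, had 114 fragments of H3K27ac (94.0 to 137) and 53 of H3K4me1 (39.7 to 69.3). It had 4 H3K27ac peaks at its ends, 3 of them around the higher coordinate, with 114, 83 and 72 fragments. ACACA, the acetyl-CoA carboxylase of the cytosol, had 74 (58.1 to 92.9) and 38 (26.9 to 52.2). An inner RefSeq start of ACACA, 47.74 kb from the listed end, had more of both marks, 126 (105 to 150.02) and 93 (75.1 to 114).

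ACACB, the carboxylase found at mitochondria, had no peak at its ends or at its outermost RefSeq start. An inner start of ACACB, 43.49 kb from the listed end, had 32 of H3K27ac (21.9 to 45.2) and 37 of H3K4me1 (26.1 to 51.0). Its H3K27ac there lay below that of ACACA at the listed end, 74, and its H3K4me1 was within counting error of the 38 of ACACA. SCD, the desaturase that makes oleate, had 25 fragments of H3K27ac (16.2 to 36.9) and 39 of H3K4me1 (27.7 to 53.3). Its H3K27ac was spread over 4 peaks at its ends, with 25, 25, 18 and 24 fragments. Its H3K27ac interval overlaps those of ELOVL5 and EBP and lies below that of FASN. By fold over local background the order of SCD and FASN was the other way round. Fold was 8.12 at SCD and 4.87 at FASN for H3K27ac, and 14.6 and 2.38 for H3K4me1.

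Among the elongases, ELOVL1, which makes very long saturated chains, had 138 fragments of H3K27ac (116 to 163) and 132 of H3K4me1 (110.4 to 157). ELOVL5, which lengthens polyunsaturated chains, had 22 (13.8 to 33.3) and 13 (6.92 to 22.2). ELOVL6, which takes palmitate to stearate, had 14 (7.65 to 23.5) and 21 (13 to 32.1). At their ends ELOVL5 and ELOVL6 overlapped in both marks and lay far below ELOVL1. A deeper H3K27ac peak of ELOVL6, with 50 fragments (37.1 to 65.9), lay 1422 bp inside its start and so outside the 1 kb windows. Its interval lies above that of ELOVL5 at the end.

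FADS1 and FADS2, neighbouring desaturases of polyunsaturated chains, shared 1 H3K27ac peak of 167 fragments (143 to 194) and 2225 bp at chr11:61815021-61817245. Their H3K4me1 was 74 (58.1 to 92.9) and 84 (67.0 to 104). ACSL3, which joins fatty acids to CoA, had 91 of H3K27ac (73.3 to 112) and 102 of H3K4me1 (83.2 to 124). ACSL1, another such ligase, had 34 (23.5 to 47.5) and 30 (20.2 to 42.8) at its end. Inner RefSeq starts of ACSL1 were much more deeply marked, with 114 of H3K27ac and 212 of H3K4me1 at 21.041 kb from the listed end and 104 and 209 at 11.47 kb. Both marks were thus deeper at these inner starts than at the end of ACSL1.

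Upstream 250 bases of SCD and ACSL3 are shown for comparison with the cholesterol steps. They are from RefSeq (GRCh38.p14) at chr10:100346983-100347232 (+ strand) and chr2:222860786-222861035 (+ strand), with CCAAT and GC boxes in capitals.
SCD: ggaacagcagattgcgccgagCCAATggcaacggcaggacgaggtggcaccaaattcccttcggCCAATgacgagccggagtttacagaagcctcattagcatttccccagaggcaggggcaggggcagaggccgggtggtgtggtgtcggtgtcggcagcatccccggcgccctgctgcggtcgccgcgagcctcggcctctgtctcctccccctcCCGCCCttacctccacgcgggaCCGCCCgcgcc
ACSL3: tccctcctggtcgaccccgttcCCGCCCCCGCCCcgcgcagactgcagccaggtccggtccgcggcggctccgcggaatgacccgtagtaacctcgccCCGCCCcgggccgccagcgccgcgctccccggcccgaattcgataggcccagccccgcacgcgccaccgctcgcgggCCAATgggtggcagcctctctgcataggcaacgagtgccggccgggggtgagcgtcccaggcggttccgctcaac
SCD holds 2 CCAAT boxes and 2 GC boxes, and ACSL3 holds 1 and 3. Both marks covered both windows in full. The deepest peaks within 1 kb of the start had 25 and 39 fragments for SCD and 91 and 102 for ACSL3. For SCD the H3K4me1 value is that of a peak at chr10:100346434-100346612, outside the window shown. The boxes lie at different distances from the start in SCD and ACSL3, and any link between boxes and depth of H3K27ac was not tested.

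Between the routes, both marks were at the ends of 15 of 17 cholesterol and 12 of 13 fatty acid steps. With the summit required inside the window, H3K27ac was at 15 of 17 and 9 of 13, against 60.7% of all genes. With only as many H3K4me1 as H3K27ac peaks, H3K4me1 was at 14 of 17 and 9 of 13, against 54.1%. With shared peaks left out, that is peaks also within 1 kb of the end of another gene, H3K27ac was at 10 of 17 and 8 of 13, against 46.3%. The cholesterol median of H3K27ac was 1.37 times the fatty acid median. Their quartiles overlapped, 84 to 150 against 25 to 137, and so did their ranges, 0 to 269 against 0 to 167. That ratio was 5 with the summit inside the window, where the fatty acid median was 25, and 1.02 when peak width replaced pileup. Without shared peaks the medians were 19 and 22 and the ratio 0.864, the other way round. For H3K4me1 the cholesterol median was 0.887 times the fatty acid median, and this order turned in 6 of the alternatives tried. With RefSeq starts in place of listed ends the medians were 134 against 102.5 for H3K27ac and 51 against 88.5 for H3K4me1.

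The depths of the 2 libraries are unknown, so a ratio of H3K27ac to H3K4me1 can be compared between gene groups but not read against 1. Over genes with both marks at an end its median was 2.27 for cholesterol steps, 1.39 for fatty acid steps and 1.78 for all genes.

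**Figure D2:**
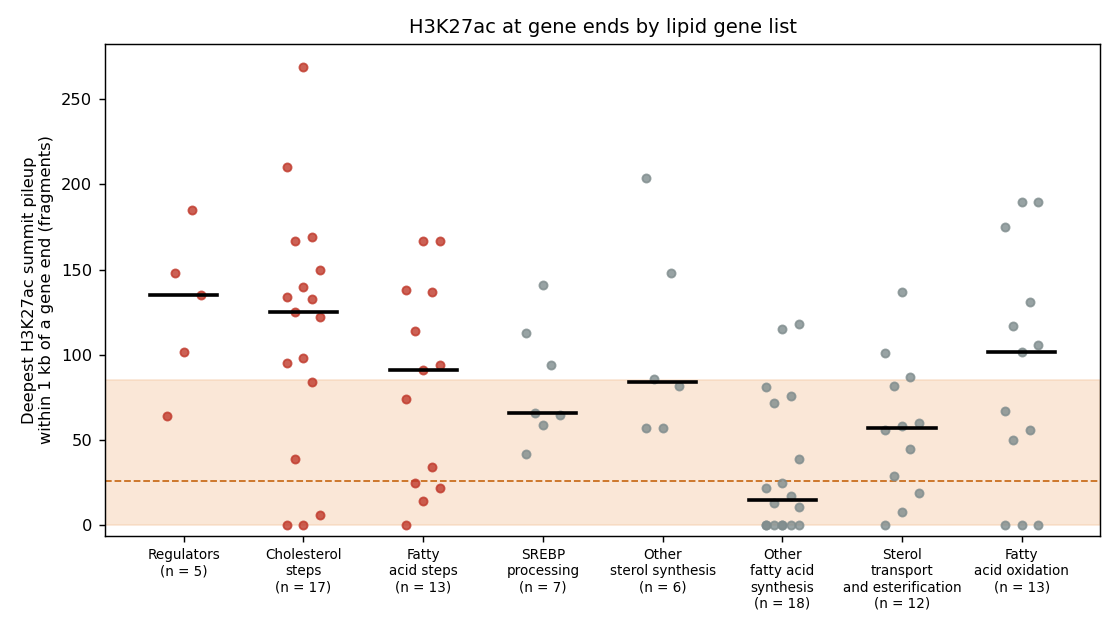
Deepest H3K27ac summit pileup within 1 kb of a gene end, in fragments, for each gene of the regulators, the cholesterol and fatty acid steps (red) and the other lipid lists (grey), with black bars at list medians. The dashed line is the median of all protein-coding genes, 26, and the band their quartiles, 0 to 85; the medians of the regulators (135), cholesterol steps (125) and fatty acid steps (91) lie above the band.

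RefSeq gave 48 transcription starts for 32 of the genes, 11 of them with more than 1, and FASN, FDFT1 and SQLE had no entry. Of the 32 genes, 31 had a H3K27ac peak within 1 kb of a start, against 64.8% of all genes in that table, and 31 had H3K4me1, against 67.5%. HSD17B7 was the exception for both. Distances from the outermost start were taken to the summit of the deepest peak within 2 kb. For H3K27ac their median was 166 bp at 14 cholesterol steps and 599 bp at 11 fatty acid steps with such a peak, against 146 bp over all genes. For H3K4me1 these distances were 196, 680 and 200 bp. A shallower summit can lie nearer, as at ELOVL6, where a H3K27ac peak of 14 fragments had its summit 105 bp from the start.

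The fatty acid steps with distant H3K27ac summits were ELOVL6, FADS1, ACSS2 and FADS2 among others, while the summits of LSS, TM7SF2 and SC5D lay almost on the start. FADS1 and FADS2 share 1 peak, which enters the median for both genes. The summit of ACSS2 lay at -325 bp relative to an inner RefSeq start. The start itself was inside the deepest H3K27ac peak within 2 kb at 27 of 30 genes (90.0%), against 77.3% over all genes. It was inside the deepest H3K4me1 peak at 13 of 30 (43.3%), against 53.2%. Shallower peaks were not counted, although such a H3K4me1 peak covered the outermost start of ACACA and of IDI1. The deepest H3K27ac peaks had a median width of 1014 bp over these genes and 794 bp over all genes.

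**Figure D3:**
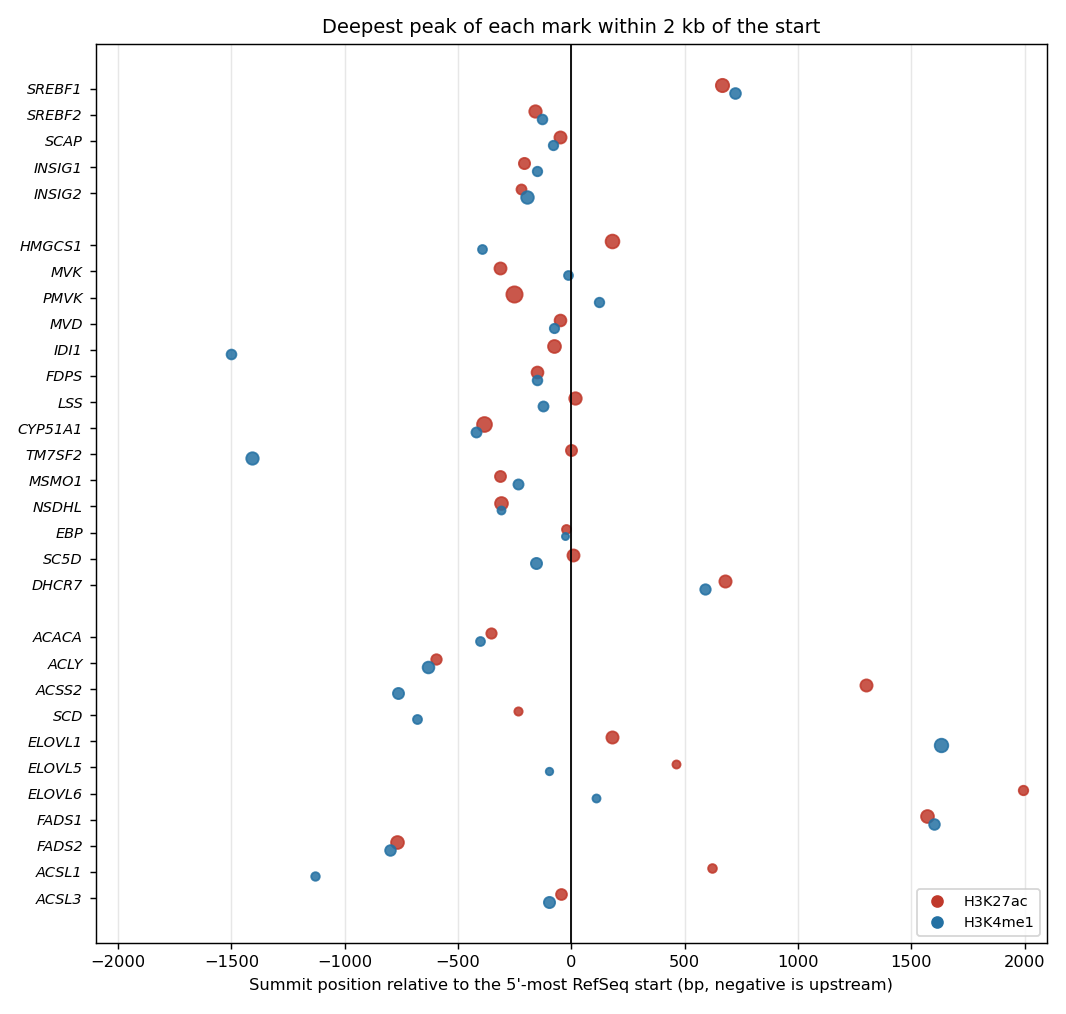
Summit of the deepest H3K27ac (red) and H3K4me1 (blue) peak within 2 kb of the outermost RefSeq start of each gene, in bp, with upstream to the left and point size rising with pileup; genes without a peak there are not drawn. Summits of most regulators and cholesterol steps lie close to the start, with medians of 166 and 196 bp for the cholesterol steps, and those of the fatty acid steps are spread more widely, with medians of 599 and 680 bp.

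The 250 bases upstream of the outermost start were searched on both strands in 32 of these genes and in all 15812 genes with a promoter entry. The sterol element was matched in 1 of the 32, SREBF2, and in 0.873% of all, and a longer and stricter form of it, also matched in SREBF2, was in 0.0506% of all. The E-box was in 4 of the 32, SCAP, INSIG1, SC5D and ELOVL5, and in 7.79% of all. CCAAT boxes were in 19 (59.4%), against 34.4%. They were in 11 of 15 cholesterol steps (73.3%), 6 of 12 fatty acid steps (50.0%) and 2 of 5 regulators, and MVK and NSDHL held 5 each.

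GC boxes were in 27 of the 32 (84.4%), against 55.8%. Both a CCAAT and a GC box were in 17 (53.1%), against 19.3%. Of the 40 CCAAT matches 1 shared bases with a GC box. GC content had a median of 67.0% over these windows and 62.0% over all. Among all genes, CCAAT boxes were about as frequent in promoters with a H3K27ac peak (35.4%) as in those without (32.9%), whereas GC boxes were in 69.4% and 33.0%. At cholesterol steps the median H3K27ac pileup within 1 kb of the outermost start was 125 with a CCAAT box and 219 without. The order was the other way round at fatty acid steps (84.5 and 54) and over all genes (41 and 27). A match is only a run of letters in this window, and no factor's binding was measured. H3K27ac covered the whole window at 23 of the 32 genes, against 34.6% of all promoters, and none of it at 4, against 43.5%. H3K4me1 covered the whole window at 13, against 20.2%, and none of it at 4, against 44.0%.

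Inside the genes, away from the ends, lay 108 H3K27ac and 215 H3K4me1 peaks. All 13 fatty acid steps had body peaks of each mark, compared with 9 of 17 cholesterol steps for H3K27ac and 12 of 17 for H3K4me1. Of all genes 45.2% had a H3K27ac and 56.3% a H3K4me1 peak in the body, so the cholesterol count for H3K27ac was near that of all genes. Fatty acid genes are longer, with a median of 63.6 kb against 21.8 kb. Per 10 kb of gene length, H3K27ac body peaks numbered 0.621 in fatty acid steps, 0.460 in cholesterol steps and 1.16 in regulators. Over all genes the rate was 0.262. That length includes the end windows, where no body peak was counted, and these are a larger part of shorter genes. With pileups of at least 10, H3K27ac peaks numbered 0.429 in fatty acid steps, 0.216 in cholesterol steps and 0.149 in all genes, and with a −log10 q of at least 5 they numbered 0.411, 0.271 and 0.155. H3K4me1 peaks numbered 1.31 in fatty acid steps, 0.920 in cholesterol steps, 1.87 in regulators and 0.578 in all genes.

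ACACA had by far the most body peaks, 25 of H3K27ac and 55 of H3K4me1, in a span of chr17:37084992-37406836. Its deepest H3K4me1 body peak, at chr17:37107364-37107959, had 382 fragments, the deepest H3K4me1 peak in or at any of the 35 genes. SREBF1 had 8 H3K27ac body peaks of up to 147 fragments and 12 of H3K4me1 of up to 277. ELOVL5 and ELOVL6, shallow at their ends, had 17 and 18 H3K4me1 body peaks, of up to 76 and 112 fragments, and 8 and 4 of H3K27ac, of up to 37 and 50. ACSL1 had 8 of H3K27ac and 15 of H3K4me1. Of the body H3K27ac peaks of the 35 genes 77.8% overlapped a H3K4me1 peak. The share was 64.7% in cholesterol steps, 79.4% in fatty acid steps and 82.6% in regulators. It was not computed for all genes, so it cannot be called particular to these genes.

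Outside the genes and within 50 kb, cholesterol steps had a median of 6 H3K27ac and 7 H3K4me1 peaks, fatty acid steps 9 and 10, and all genes 3 and 6. SREBF1 had 15 and 21, PMVK 14 and 19, TM7SF2 14 and 22, and FASN 14 and 27. HMGCS1, MSMO1, ELOVL6 and ACSL3 had 1 H3K27ac peak each, and SQLE, HSD17B7 and ELOVL5 none. Of the distinct flank peaks 31.8% of H3K27ac and 31.5% of H3K4me1 lay within 1 kb of the end of another protein-coding gene, so a flank count is not a count of elements acting on the gene named.

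**Figure D4:**
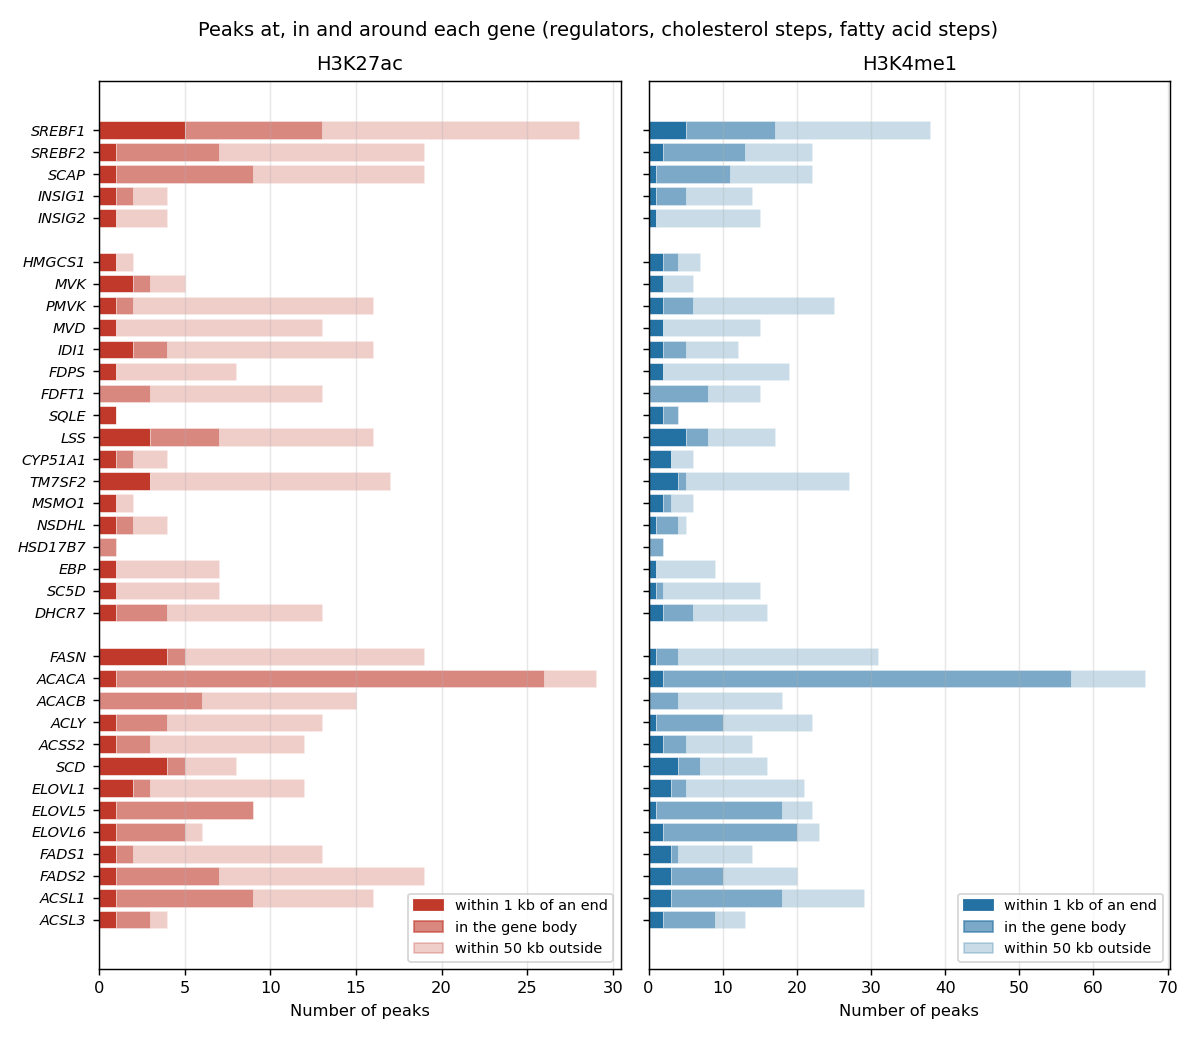
Number of H3K27ac (left) and H3K4me1 (right) peaks within 1 kb of an end, in the body and within 50 kb outside each gene, stacked from dark to light, with regulators, cholesterol steps and fatty acid steps from top to bottom. ACACA has the longest body segments, 25 and 55 peaks, while HSD17B7 and SQLE have no peaks outside the gene.

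The study concerned super-enhancers, clusters of active elements. Here regions were built from H3K27ac peaks that reached beyond 2.5 kb of every gene end. Nearby ones were stitched together and ranked by fold times length. Of 25235 regions 1326 passed the slope threshold, and 10 of the 35 genes had an end within 50 kb of one, against 13.5% of all genes. They were 3 of 17 cholesterol steps, a share near that of all genes, 5 of 13 fatty acid steps and 2 of 5 regulators. With peaks under 10 fragments dropped, 4 of the 35 genes were near a region, none of them a fatty acid step, against 7.01%. With peaks at gene ends kept, the cholesterol steps near a region numbered 7 of 17, against 25.0% of all genes.

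The regions that overlapped a gene of the lists were in SREBF1 (rank 606), SCAP (rank 220), FDFT1 (rank 150), ELOVL5 (rank 671), ACACA (rank 876), PMVK (rank 1048) and ACSL1 (rank 1249). That of FDFT1, chr8:11802142-11820558, spanned 18417 bp with 3 H3K27ac and 7 H3K4me1 peaks. That of SCAP, chr3:47418461-47443992, held 6 and 7. The region of PMVK was its start peak alone, kept because the start lies inside the listed span. Other regions lay over neighbours, such as rank 45 over RAI1 near SREBF1, rank 416 over CTSB near FDFT1, rank 466 over PTPN23 near SCAP, rank 772 over RUSC1 near FDPS, rank 740 over CCDC57 near FASN and rank 1086 over RAB3IL1 near FADS2. SREBF1, SCAP, FDFT1 and FDPS were near a region in each of 5 alternatives, PMVK in 4, FASN, ACACA and ACSL1 in 3, and ELOVL5 and FADS2 in 2.

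The deepest H3K27ac peak at an end was also at the end of another protein-coding gene for 11 of the 32 marked genes (34.4%), against 30.1% of all marked genes. The genes were SREBF2 (with CCDC134), MVK (MMAB), IDI1 (WDR37), FDPS (PKLR), TM7SF2 (VPS51), NSDHL (CETN2), EBP (PORCN), ACACA (TADA2A), ACLY (ODAD4), and FADS1 with FADS2. MMAB, an enzyme of cobalamin metabolism, is known to share its promoter with MVK. For these genes the peak cannot be assigned to one gene.

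Other lipid genes give a setting for these values. Of 56 genes in 5 further lists 45 had H3K27ac and 49 H3K4me1 at an end, against 62.3% and 65.6% of all genes. All 7 genes that process or degrade SREBP or its partners had H3K27ac, with a median of 66, led by MBTPS1 (141), the protease that first cuts SREBP, and RNF139 (113), a ubiquitin ligase. All 6 further genes of sterol synthesis had both marks, with a median of 84, led by ACAT2 (204), which condenses acetyl-CoA, and POR (148), the electron donor of CYP51A1. Both medians lay above the 26 of all genes and below the 125 of the cholesterol steps.

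Of 18 further genes of fatty acid synthesis 11 had H3K27ac, a share near the 62.3% of all genes, and 14 had H3K4me1. Their H3K27ac median was 15, below the 26 of all genes and the 91 of the fatty acid steps. HACD3 (118), a dehydratase of elongation, and ME1 (115), which makes NADPH, led this list, while ELOVL2, HSD17B12, TECR and ACSL5 had neither mark. TECR had 104 and 55 at its RefSeq start, away from its listed ends. Of 12 genes of sterol transport and esterification 11 had each mark, with a median of 57, led by NPC1 (137) and NR1H3 (101), and ABCA1 had neither. Of 13 genes of fatty acid oxidation 10 had H3K27ac and 12 H3K4me1, with a median of 102. They were led by HADHA and HADHB, which share a peak of 190, and CPT1B had neither. ACADVL, without H3K27ac at its listed ends, had 182 of H3K27ac and 137 of H3K4me1 at its RefSeq start. The median of the oxidation genes thus lay above that of the fatty acid steps.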

How the data were processed

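CUT&Tag peaks of H3K27ac and H3K4me1 were used from 2 libraries of enzalutamide-resistant C4-2B cells, 1 per antibody. The tools named are BWA and MACS2, on hg38, per the submitters' processing notes. Versions, settings, duplicate handling and any background library are not given in the sources used here. The labels name an anti-mouse secondary antibody for both libraries, and any effect of it was not tested. The deposited columns hold a score per peak, the authors' fold enrichment, a ratio of summit to local background, and the summit's p and q as −log10 values. From the deposited fold and p, the summit pileup k was recovered as the whole number for which (k + 1) over (background + 1) gives the fold and the Poisson tail gives p, within 0.001 in −log10 p or a relative 0.0001. This succeeded for all peaks on chromosomes 1 to 22 and X, and more than 1 whole number fitted at 228 and 241 peaks, none of them at an end of the 35 genes. Recovery was tested on simulated data.

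Genes came from RefSeq for GRCh38.p14, whose table gives listed spans without strand, and starts and promoters from a second table. A mark was at an end when a peak overlapped the window of 1 kb on either side by at least 1 bp, in the body when inside the gene beyond those windows, and in the flank when within 50 kb outside. All 35 genes may be named. Values are given for the regulators, the deepest and shallowest of each route, and genes lacking a mark. They are also given for genes near a region or sharing a peak and those with most peaks. From each other list they are given for the 2 deepest and those with neither mark, and also for ACADVL. The genes and lists were chosen with earlier results of these data known. With no replicates, no test was made, and counts and medians stand beside those of all protein-coding genes. Alternatives covered windows, thresholds, the measure of depth, shared peaks and region rules. Python 3.11.15, pandas 2.3.3, NumPy 2.4.6, SciPy 1.17.1 and matplotlib 3.10.9 were used. One blood marker is not reported here.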

Additional observations from a re-analysis of the deposited data

How the results depend on the processing

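Counts and ratios were taken as unchanged within 1.5-fold, and medians and body rates within the Poisson 95% interval of the original value, which is wide where few peaks enter. By these limits 24 of 131 recomputed values moved and 7 turned. The limits are uneven: the H3K27ac body rate of cholesterol steps at a −log10 q of at least 5, 0.271, and the H3K27ac flank median of fatty acid steps at a pileup of at least 10, 5 in place of 9, were inside them. The ratio of the cholesterol to the fatty acid median of H3K27ac, 1.37, became 5 with only peaks whose summit lay inside the window and turned to 0.864 with shared peaks left out. The same ratio for H3K4me1, 0.887, became 0.576 with RefSeq starts and turned with the summit inside the window (1.15), with as many H3K4me1 as H3K27ac peaks (1.21), with shared peaks left out (1.27), with the 6 fatty acid steps up to desaturation (1.02), with fold (1.18) and with width (1.59). The H3K4me1 median of the fatty acid steps was 71 with a window of 2.5 kb, 88.5 with starts, 39 with the summit inside, 39 with as many peaks and 30 without shared peaks. Their H3K27ac median was 25 with the summit inside and 22 without shared peaks, when that of the cholesterol steps was 19. Of the 6 fatty acid steps up to desaturation 5 had H3K27ac and 5 H3K4me1. These counts were classed as moved, but they are out of 6 genes, where 12 of all 13 fatty acid steps had each mark. Body H3K27ac peaks per 10 kb were 0.216 for cholesterol and 0.429 for fatty acid steps at a pileup of at least 10, and for fatty acid steps 0.411 at a −log10 q of at least 5, with 1.08 for H3K4me1. Flanks of 20 kb held medians of 2 and 4 H3K27ac peaks, and flanks of 100 kb a median of 17 H3K4me1 peaks at cholesterol steps. Near a region were 7 cholesterol steps with end peaks kept, against 25.0% of all genes. At a pileup of at least 10 they were 4 genes and 0 fatty acid steps, against 7.01% of all genes. Within 20 and 100 kb they were 3 and 8 fatty acid steps, against 7.74% and 20.7% of all genes. The cause of these changes was not tested, except that fewer peaks or genes enter under the stricter settings. No paired analysis was possible because each antibody has 1 library. Peaks below 10 fragments, 38.5% of H3K27ac and 22.3% of H3K4me1, are the least certain.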
